A study of Homo sapiens with 16 samples.

Results

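The MYC and MAX network was followed through stepwise gemcitabine resistance of T24 bladder cancer cells by the expression of 10 genes. These are the MYC family genes MYC, MYCN and MYCL, their partner MAX, the MAX-binding repressors MXD1, MXD3, MXD4, MXI1 and MNT, and the related factor MLX. They were taken by gene symbol from a table of 39007 genes, and none was dropped for its values. The choice of the members was made with earlier results of these data known. Of the 10, 8 had a mean above 1 CPM (the counts of a gene scaled to a fixed total for each library). T24 is an established cell line from a human bladder carcinoma, and gemcitabine is a nucleoside analogue that blocks DNA synthesis. RNA-sequencing values were available for 16 libraries, 4 each of parental T24 cells (parental phase P0) and of the resistant line GRC1 at 3 later points. They are named P3 (early phase), P7 (intermediate phase) and P15 (late phase) after the round of drug exposure and recovery. Every library title, in P0 as in the later phases, carries the mark NT, read here as not treated. The phases come from successive rounds of 1 line, and the labels do not say whether the libraries of a phase came from separate cultures, so the p-values measure the spread between these libraries, which may be technical.

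The deposited values are log2 of CPM plus 1, and every level or difference called log2 below is on this scale, which understates the change of low genes. Estimated totals were 33.7 to 50 M counts per library, so that 1 count was worth 0.02 to 0.0297 CPM. P15 stood apart from the other phases. There, 16 genes with at least 10 CPM in every library of P0, P3 and P7 were at 3 counts or fewer in every library, and 4 genes showed the reverse, while for each of the other phases both numbers were 0. The summed level of 6 epithelial markers was 1666 to 2484 CPM in the libraries of P0, P3 and P7 and 673 to 751 CPM in those of P15, with KRT7 at a mean of 957 CPM in P0 and 11.5 CPM in P15, KRT18 at 471 and 633 CPM and CDH1, the epithelial cadherin, at 0.05 CPM or less in all phases. The summed level of 7 urothelial markers was 67.1 to 111 CPM before P15 and 18.4 to 21.9 CPM in P15. Most of this sum was GATA3 and PPARG, with means of 36.2 and 62.3 CPM in P0 and 1.43 and 16.8 CPM in P15. UPK1A went the other way, from a mean of 0.07 CPM in P0 to 1.98 CPM in P15, and UPK2 had 0.84 and 0.59 CPM. KRT20, UPK3A and UPK1B were at or near 0 throughout. The summed level of 5 fibroblast markers was at most 5.77 CPM before P15 and 43.98 to 49.1 CPM in P15, through COL1A1 and COL3A1, with DCN at 0. Leukocyte and endothelial lists summed to at most 8.5 and 7.95 CPM. The part of these shifts in the differences of P15 described below was not tested, nor was a common origin of the cells of all phases.

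MYC is a transcription factor that binds DNA as a dimer with MAX, chiefly at the E-box CACGTG, and raises the transcription of genes for ribosome production, metabolism and cell division. MAX has other partners: MXD1, MXD3, MXD4, MXI1 and MNT compete with MYC for MAX, bind the same sites and repress through SIN3 and histone deacetylases. MLX forms a parallel branch, in which it pairs with the glucose-sensing factors MLXIP and MLXIPL and with some of the MXD proteins and MNT. In bladder and many other cancers MYC is a well known oncogene, and its transcript and protein are both short-lived.

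Because all of these factors recognise CACGTG, the stretch before the start of each network gene was searched for it. The motif reads the same on both strands, so 1 search covers both. RefSeq (GRCh38.p14) supplied windows of the 250 bases before the start for 9 of the 10 members, and the genes MXD4, MNT and MLX held the E-box. Across all windows of this length, 6.34% of 35116 held it, and across the tested genes with a window the share was 11.2% of 9714. The matches are descriptions of sequence, not measured binding. The windows that hold it are shown 5′ to 3′ on the strand of the gene, with the E-box in capitals, since these 3 genes behaved differently from each other across the phases. For MXD4 the window is chr4:2262110-2262359 (minus strand) and the motif begins 238 bases before the start, for MNT it is chr17:2401061-2401310 (minus strand) with 193 bases, and for MLX chr17:42566850-42567099 (plus strand) with 50 bases.
MXD4: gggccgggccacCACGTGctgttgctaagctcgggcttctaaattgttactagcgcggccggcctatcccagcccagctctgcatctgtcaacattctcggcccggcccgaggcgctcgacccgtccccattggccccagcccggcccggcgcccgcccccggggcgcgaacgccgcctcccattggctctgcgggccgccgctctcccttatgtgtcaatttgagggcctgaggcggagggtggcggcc
MNT: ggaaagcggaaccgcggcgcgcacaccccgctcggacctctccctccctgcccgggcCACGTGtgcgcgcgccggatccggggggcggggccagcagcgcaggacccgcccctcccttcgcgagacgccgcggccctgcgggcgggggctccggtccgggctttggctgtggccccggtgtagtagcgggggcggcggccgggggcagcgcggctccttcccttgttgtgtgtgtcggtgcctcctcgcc
MLX: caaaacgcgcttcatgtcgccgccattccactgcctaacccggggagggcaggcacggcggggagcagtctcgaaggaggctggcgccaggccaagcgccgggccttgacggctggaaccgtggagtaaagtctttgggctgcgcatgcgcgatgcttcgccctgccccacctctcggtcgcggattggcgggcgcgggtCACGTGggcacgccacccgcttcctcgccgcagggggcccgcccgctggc

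MYC (chr8:127735434-127742951, plus strand, GENCODE 44 on GRCh38) fell early and then rose far above its parental level. In parental phase P0 its log2 levels were 6.52, 6.65, 6.51 and 6.60 in replicates 1 to 4, and in early phase P3 they were 6.06, 6.14, 6.03 and 6.05. Intermediate phase P7 had log2 levels of 6.0, 6.06, 5.83 and 6.08, and late phase P15 had 8.28, 8.30, 8.40 and 8.41. Thus all P15 libraries lay above every other library, all P0 libraries lay above those of P3 and P7, and P3 and P7 overlapped. On the linear scale P0 had a mean of 94.1 ± 4.43 CPM (SD, n = 4 libraries), P3 one of 66.2 ± 2.28, P7 one of 62.8 ± 4.87 and P15 one of 325 ± 15.1. Phases were compared with limma over 13249 genes, with Benjamini-Hochberg adjustment, and a gene was called at an adjusted p-value below 0.05. The log2 difference of MYC was -0.50 (SE 0.05, adjusted p = 2.0e-09) for P3 against P0, -0.08 (adjusted p = 0.17) for P7 against P3 and 2.36 (SE 0.05, adjusted p = 2.3e-23) for P15 against P7. Against P0, the P15 level was 1.78 higher on the log2 scale (adjusted p = 7.1e-21), a 3.43-fold difference. As many genes differed in P15, this places MYC at rank 616 of 13249 from the highest difference to P0, and at rank 356 for P15 against P7. MYC is 1 of the genes that the study put in a signature with these libraries in view, so its direction here is not independent evidence. The study also measured genes related to P3, P7 and P15 by quantitative PCR, and its primer list includes MYC. In bulk RNA, fewer cells with a transcript and less of it per cell cannot be told apart, and no protein was measured here.

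MYCL, the family member first found amplified in lung cancer, was a late and low addition to MYC. Its log2 levels were 0.37, 0.22, 0.16 and 0.35 in P0, 0.07 to 0.24 at P3 and 0.14 to 0.26 at P7, and then 2.10, 1.79, 1.85 and 1.86 in P15. All P15 libraries lay above all others, which overlapped among themselves. The estimated counts behind these values were 31 in P0, 18 at P3, 24 at P7 and 449 in P15, each summed over 4 libraries. The mean in P15 was 2.75 CPM, 12.9-fold that of P0 (0.212 CPM) and 19.2-fold that of P7. MYCL did not reach the mean of 1 CPM required for the test. With the filter on low values dropped, its log2 difference was 1.63 (SE 0.08, adjusted p = 6.2e-12) for P15 against P0 and -0.12 (adjusted p = 0.34) for P3 against P0. MYCN, the family member amplified in neuroblastoma, was at 0 in 15 libraries, and in replicate 2 of P3 it had 0.0497 CPM, about 2 counts. At this depth 3 counts correspond to 0.06 to 0.089 CPM, so MYCN was not detectable above that level in any phase.

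**Figure D1:**
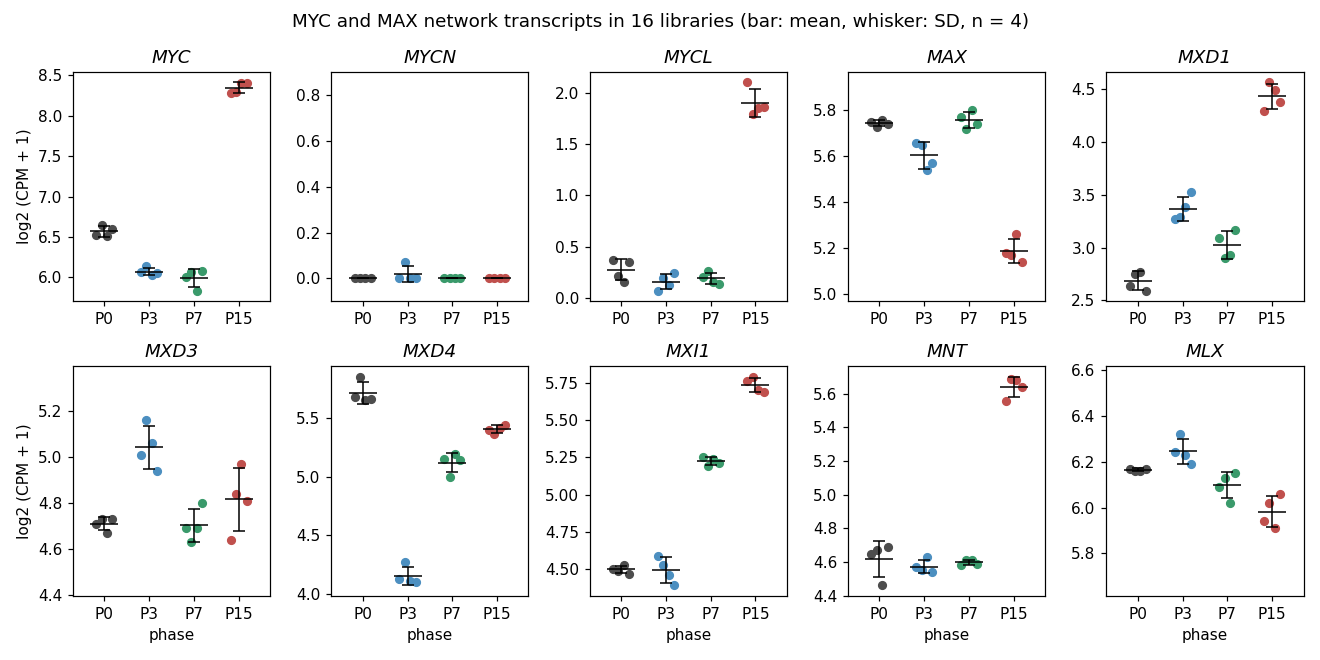
Log2 of CPM plus 1 of the 10 network genes in each of the 16 libraries by phase (points), with the mean (bar) and SD (whisker) of each phase and a vertical scale of its own for each gene. MYC, MXD1, MXI1, MNT and MYCL have their highest values in P15, MAX and MLX their lowest phase mean there, and MXD4 has its lowest in P3.

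MAX (chr14:65006174-65102695, minus strand), the partner every MYC protein needs, moved less than MYC and in the other direction at the end. Its log2 levels were 5.75, 5.73, 5.76 and 5.74 in P0, 5.66, 5.65, 5.54 and 5.57 at P3, 5.77, 5.72, 5.80 and 5.74 at P7, and 5.18, 5.17, 5.26 and 5.14 in P15. All P15 libraries lay below every other library, all P3 libraries lay below those of P0 and P7, and P0 and P7 overlapped. The log2 difference was -0.14 (SE 0.04, adjusted p = 0.0029) for P3 against P0, 0.15 (adjusted p = 0.0018) for P7 against P3 and -0.57 (SE 0.04, adjusted p = 1.1e-12) for P15 against P7. The mean fell from 52.6 CPM in P0 to 35.5 CPM in P15, a log2 difference of -0.56 (adjusted p = 1.8e-12). The exons of MAX share 13.1% of their bases with FNTB on the opposite strand, at a mean of 8.05 CPM over all libraries. The log2 mean of FNTB went from 3.21 in P0 to 2.39 in P15, and its part in the counts of MAX was not tested. The strand setting of the counting is not given in the sources used here.

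MLX (chr17:42567072-42573239, plus strand) had the smallest range of phase means among the 8 tested members. Its log2 levels spanned 6.16 to 6.17 in P0, 6.19 to 6.32 at P3, 6.02 to 6.15 at P7 and 5.91 to 6.06 in P15. The levels of P15 lay below those of P0 and P3 and overlapped those of P7. It fell by 0.18 on the log2 scale from P0 to P15 (SE 0.04, adjusted p = 0.00016) and by 0.15 from P3 to P7 (adjusted p = 0.0026). For P3 against P0 the log2 difference was 0.08 (adjusted p = 0.075), and it passed the threshold without replicate 4 of P3 (0.098, adjusted p = 0.047). MLX shares 18.2% of its exon bases with PSMC3IP on the opposite strand, at a mean of 22.6 CPM.

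Among the MAX-binding repressors, MXD1, MXI1 and MNT rose by P15, and each took another course to that level. MXD1 (chr2:69897688-69942945, plus strand), which is known to rise when cells stop dividing and mature, had log2 levels of 2.64, 2.75, 2.77 and 2.59 in P0 and 3.27, 3.29, 3.38 and 3.52 in P3. In P7 its log2 levels were 3.09, 2.90, 2.93 and 3.17, and in P15 they were 4.29, 4.56, 4.49 and 4.37. No pair of phases overlapped. MXD1 rose by 0.68 (SE 0.08, adjusted p = 6.5e-08) from P0 to P3, fell by 0.34 (adjusted p = 0.00073) from P3 to P7 and rose by 1.41 (adjusted p = 2.4e-14) from P7 to P15, all log2 differences. Its mean level went from 5.45 ± 0.39 CPM (SD, n = 4) in P0 to 20.6 ± 1.80 CPM in P15, a log2 difference of 1.74 (adjusted p = 3.5e-16).

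MXI1 (chr10:110207605-110287365, plus strand), also called MXD2, rose in steps from P3 on. Its log2 levels were 4.50, 4.49, 4.53 and 4.47 in P0, 4.59, 4.53, 4.46 and 4.39 at P3, 5.25, 5.19, 5.24 and 5.21 at P7, and 5.76, 5.79, 5.70 and 5.69 in P15. P0 and P3 overlapped, while P7 lay above both and P15 above P7. The log2 difference was -0.01 (adjusted p = 0.93) for P3 against P0, and its sign changed with the scaling. From P3 to P7 MXI1 rose by 0.73 (SE 0.05, adjusted p = 2.6e-12) and from P7 to P15 by 0.51 (SE 0.05, adjusted p = 1.8e-10) on the log2 scale.

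MNT (chr17:2384073-2401104, minus strand), the most widely expressed of the MAX-binding repressors, differed from the other phases in P15, with no call among P0, P3 and P7. Its log2 levels were 4.65, 4.67, 4.46 and 4.69 in P0, 4.54 to 4.63 at P3 and 4.58 to 4.61 at P7, and 5.56, 5.69, 5.68 and 5.64 in P15. The libraries of P0, P3 and P7 overlapped, and all of P15 lay above them. The log2 difference was -0.05 (adjusted p = 0.44) for P3 against P0, 0.03 (adjusted p = 0.69) for P7 against P3 and 1.05 (SE 0.05, adjusted p = 9.4e-16) for P15 against P7. In CPM, the mean was 23.2 ± 0.25 (SD, n = 4) in P7 and 49.0 ± 2.02 in P15. The exons of MNT share 12.2% of their bases with a long noncoding RNA gene on the opposite strand, for which no level was found.

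MXD4 (chr4:2247432-2262109, minus strand) went the other way in early phase. The log2 levels were 5.68, 5.85, 5.65 and 5.66 in P0, 4.13, 4.27, 4.11 and 4.10 at P3, 5.15, 5.00, 5.19 and 5.14 at P7, and 5.40, 5.36, 5.41 and 5.44 in P15. No pair of phases overlapped, with P0 the highest and P3 the lowest. MXD4 fell by 1.56 (SE 0.05, adjusted p = 8.8e-18) from P0 to P3 and rose by 0.97 (SE 0.05, adjusted p = 2.3e-13) from P3 to P7 and by 0.28 (adjusted p = 2.8e-05) from P7 to P15, all log2 differences. Its mean in CPM began at 51.4, dropped to 16.8 for P3 and came back to 33.8 for P7 and 41.3 for P15, where it was still 0.31 below P0 on the log2 scale (-0.31, adjusted p = 9.3e-06). By its difference from P0 to P3, MXD4 was at rank 111 of 13249 from the lowest.

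MXD3 (chr5:177301461-177312757, minus strand), which unlike the other MXD genes is known for its expression in dividing cells, had its highest mean in P3. Its log2 levels spanned 4.67 to 4.73 in P0, 4.94 to 5.16 at P3, 4.63 to 4.80 at P7 and 4.64 to 4.97 in P15. P3 lay above P0 and P7 and overlapped P15. The log2 difference was 0.33 (SE 0.06, adjusted p = 3.4e-05) for P3 against P0 and -0.34 (adjusted p = 3.9e-05) for P7 against P3. Those of P15 against P7 and P0 were both 0.11 (adjusted p = 0.084 and 0.11). Without replicate 1 of P15 they were 0.17 (adjusted p = 0.0089) and 0.16 (adjusted p = 0.012), and without replicate 4 of P7 the first was 0.15 (adjusted p = 0.040). The exons of MXD3 share 24.2% of their bases with PRELID1 on the opposite strand, at a mean of 106 CPM, and 19.5% with RAB24 on the same strand, so its counts are uncertain where they overlap.

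Counted over the 8 tested members, 5 were called for P3 against P0 (2 higher, 3 lower), where 68.7% of all tested genes were called (31.4% higher, 37.3% lower). For P7 against P3 the count was 6 (3 higher, 3 lower), beside 58.2% of all genes (30.3% higher, 28.0% lower). For P15 against P7 it was 7 (5 higher, 2 lower), beside 86.4% (46.3% higher, 40.1% lower), and for P15 against P0 it was 7 (4 higher, 3 lower), beside 86.2% (45.3% higher, 40.9% lower). These counts are near the background in each comparison. With at least a 2-fold difference required as well, 4 members rose from P0 to P15 (MYC, MXD1, MXI1 and MNT) and none fell, while 12.1% of all genes were higher and 11.4% lower by this rule. For P15 against P7 the members past 2-fold were MYC, MXD1 and MNT, all higher, with 13.4% of all genes higher. MXD4 alone fell past 2-fold from P0 to P3, with 2.51% of all genes lower, and none of the 8 passed it from P3 to P7, with 1.83% of all genes past it in either direction. The median log2 difference of the members from P0 to P15 was 0.57, beside 0.04 for all tested genes. For P7 against P0, MXD1 and MXI1 were higher and MYC and MXD4 lower, so 4 members were called, beside 62.1% of all genes (27.9% higher, 34.2% lower). For P15 against P3 all 8 tested members were called (5 higher, 3 lower), beside 87.2% (46.1% higher, 41.1% lower). The comparisons share libraries and are not independent of each other. When P15 was left out of the fit, the same 5 and 6 members were called for P3 against P0 and P7 against P3.

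**Figure D2:**
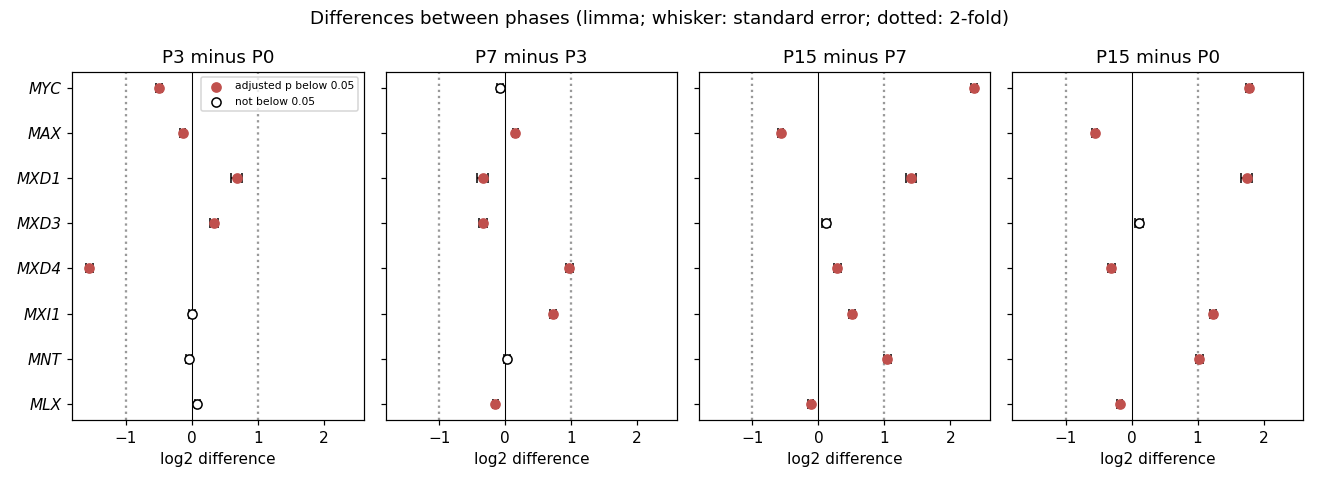
Log2 difference (axis) of the 8 tested network genes for each pair of successive phases and for P15 against P0, with whiskers of 1 standard error from limma, filled points for adjusted p-values below 0.05 and dotted lines at 2-fold. MYC stands at 2.36 for P15 against P7, MXD4 at -1.56 for P3 against P0, and MAX and MLX fall below 0 in both comparisons of P15.

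Per kilobase of merged exons (GENCODE 44), which allows levels of different genes to be set side by side, the make-up of the network changed in P15. MYC stood at 15.4 ± 0.72 CPM per kb (SD, n = 4) in P0, 10.8 ± 0.37 at P3, 10.3 ± 0.80 at P7 and 53.2 ± 2.48 in P15. MLX was the highest of the 10 genes in P0, P3 and P7, at 16.6, 17.6 and 15.9 CPM per kb, followed by MYC and then MAX, which had 8.41, 7.62 and 8.49. In P15 the order was MYC, MLX (14.6), MXI1 (8.85) and then MXD4, MXD3, MAX and MNT, which lay between 5.63 and 6.01 and where each overlapped its neighbour in this order, before MXD1 (3.24), MYCL (0.553) and MYCN (0). In P0 the neighbours MLX and MYC were also close, with a highest MYC library of 16.3 and a lowest MLX library of 16.6. MYC made up 25.4 ± 0.70% of the summed level of the network in P0, 20.4 ± 0.29% at P3, 18.7 ± 1.13% at P7 and 51.4 ± 1.06% in P15. Its ratio to MAX went from 1.83 at the start through 1.42 (P3) and 1.21 (P7) to 9.39 ± 0.51 at the end. The 5 MAX-binding repressors together rose from 20.02 CPM per kb in P0 to 29.5 in P15, so the ratio of MYC to their sum, 0.769 ± 0.02 in P0 and 0.511 ± 0.05 in P7, was 1.81 ± 0.08 in P15. With the length of the canonical transcript in place of merged exons, MYC held rank 3 in P0 and rank 4 in P3 and P7 and was again the highest in P15, and its ratio to the 5 repressors was 0.517 in P0 and 1.35 in P15. Its ratio to MAX by this length went from 0.966 in P0 through 0.750 (P3) and 0.640 (P7) to 4.95 ± 0.27 in P15. The mean of this ratio thus lay below 1 before P15. The share of MYC in the summed level was also lower by this length, at 19.4% in P0 and 44.3 ± 0.93% in P15. Its P15 libraries spanned 43.1 to 45.3%.

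**Figure D3:**
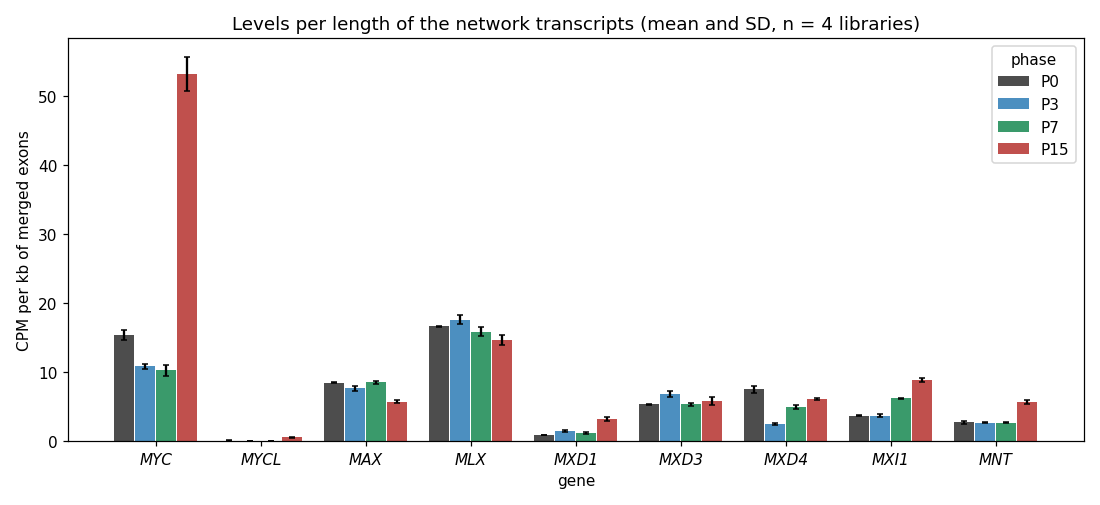
Level of the network genes other than MYCN in CPM per kilobase of merged exons by phase, as means over 4 libraries with bars of 1 SD. MLX leads in P0, P3 and P7 (16.6, 17.6 and 15.9), and MYC leads in P15 at 53.2.

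The tested genes most like each member in pattern were found by the Pearson correlation of the log2 levels over the 16 libraries, which fall into 4 phases with P15 far from the rest, so that high values are easily reached. For MYC they were MIPOL1 (r = 0.998), BCL11A (0.997), ABCA3 (0.996), SH2D3A (0.996) and RAB6B (0.995). MNT was closest to DKKL1, NR4A1 and SEMA4B (0.994 each), MXD1 to JUNB (0.990), TMC7 and IER2 (0.988 each), and MAX to WI2-87327B8.2, TIGD5 (0.991 each) and PELI3 (0.990). Genes with the V-shaped course of MXD4 were C1QTNF1 (0.991), P3H3 (0.982) and LOXL2 (0.980), and those nearest to MXI1 were RASSF4 (0.987), DGUOK (0.986) and EPB41L1 (0.983). The closest matches were weaker for MLX, with PLEKHJ1 (0.946), TTC9C (0.933) and IL6R (0.931), and for MXD3, with SH3BP5L (0.909), EZR (0.897) and PKMYT1 (0.894).

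The remaining network factors and the cofactors moved in both directions. MGA, a MAX partner that also carries a T-box, and MLXIP, the MLX partner MondoA, were both lower in P15 than in P0, by log2 differences of -0.49 (adjusted p = 9.3e-06) and -0.45 (adjusted p = 3.7e-10). MLXIPL (ChREBP), whose mean over all libraries was below 1 CPM and which was not tested, was at 0 in every library of P0 and P7 and at 0.0497 CPM in 1 library of P3, and had log2 levels of 1.74, 1.74, 2.20 and 1.86 in P15, where its mean was 2.73 CPM. All P15 libraries of MLXIPL thus lay above the others, as for MYCL. In the lists that follow, each count for P15 against P0 is to be read beside the 45.3% of all tested genes that were higher and the 40.9% that were lower, and each count past 2-fold beside 12.1% and 11.4%. Of 5 SIN3 and HDAC corepressor genes, through which the MXD proteins act, 1 rose (NCOR1, 0.16), 3 fell (HDAC1, -1.33, SIN3A, -0.23, and HDAC2, -0.19) and SIN3B had a log2 difference of 0.02 (adjusted p = 0.63). HDAC1, a deacetylase of the SIN3 complex, had a mean of 348 CPM in P0 and 137 CPM in P15. Of 11 MYC coactivators with ZBTB17 (MIZ1, through which MYC represses), 6 rose, 1 fell and 4 were not called from P0 to P15, with a median of 0.18. RUVBL2, an ATPase of the TIP60 complex, rose by 1.18 and ZBTB17 by 0.94, while the acetyltransferase KAT2A had -0.87. All 15 genes of MYC protein turnover were called, 9 higher and 6 lower. PIM1, a kinase that phosphorylates MYC, rose by 2.20 from a mean of 11.5 to 56.8 CPM, and SKP2, a ubiquitin ligase subunit for MYC and for CDKN1B, fell by 1.96 from 70.8 to 17.5 CPM. PPP2R5A, a phosphatase subunit that acts on MYC, rose by 0.59 and AURKA, a kinase known to stabilise MYCN, fell by 0.66 on the log2 scale.

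Lists of genes widely described as MYC targets held genes that rose and genes that fell. Of 27 nucleolar and ribosome biogenesis genes, 13 were higher in P15 than in P0, 9 lower and 5 not called (median log2 difference 0.09), near the shares of all tested genes (45.3% higher, 40.9% lower). From P0 to P3, 11 rose, 5 fell and 11 were not called, beside 31.4% of all tested genes higher and 37.3% lower. Between P3 and P15, 11 rose and 11 fell, beside 46.1% higher and 41.1% lower. From P3 to P7, 24 of the 27 fell and 1 rose (median -0.34, with 28.0% of all genes lower and 30.3% higher). From P7 to P15, 20 rose and 4 fell (median 0.30, with 46.3% of all genes higher and 40.1% lower). The difference of MYC between P3 and P7 was not called, and a link between MYC and the course of these genes was not tested. The largest rises from P0 to P15 were in RRP9 (0.85) and FBL (0.82), which serve small nucleolar RNP complexes, and the largest falls in RRS1 (-1.13), a ribosome assembly factor, and UBTF (-0.93), the activator of RNA polymerase I.

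Of 17 nucleotide and polyamine synthesis genes, 10 rose and 6 fell from P0 to P15 (median 0.27), beside 45.3% and 40.9% of all tested genes. ODC1, the first enzyme of polyamine synthesis and a classical MYC target, had log2 levels of 6.98, 6.92, 7.09 and 7.04 in P0, 8.97, 8.93, 8.90 and 8.96 at P3, 7.81, 7.79, 7.91 and 7.83 at P7, and 10.11, 10.06, 9.93 and 10.21 in P15. No pair of phases overlapped. Its log2 difference to P0 was 3.07 in P15 (SE 0.04, adjusted p = 3.8e-26) and 1.93 in P3, where MYC was below P0. A link between ODC1 and MYC in these cells was not tested. MTHFD2, a mitochondrial folate enzyme, rose by 1.28, while UMPS, which makes UMP, fell by 0.75 and TYMS, which makes dTMP, fell by 0.68. Of 13 genes of glycolysis and of amino acid and iron uptake, 6 rose and 6 fell from P0 to P15 (median 0.03), which is close to the 45.3% and 40.9% of all tested genes. HK2 (hexokinase 2) rose by 1.88 and the glutamine transporter SLC1A5 by 1.46, whereas PKM (pyruvate kinase) fell by 1.35 and LDHA (lactate dehydrogenase A) by 0.95. HK2 had reached this range in P3, with a log2 difference of 2.07 to P0.

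Of the 13 tested cell cycle and translation genes, 3 rose and 7 fell from P0 to P15 (median -0.33), beside 45.3% and 40.9% of all tested genes. Past 2-fold, 1 rose and 4 fell, beside 12.1% and 11.4%. TERT, the telomerase subunit, rose by 2.63 (SE 0.11, adjusted p = 5.0e-17) from a mean of 2.27 CPM to 19.2 CPM, while in P7 it was at 2.33 CPM. HSPD1, a mitochondrial chaperone, rose by 0.43, and MCM4, a part of the replicative helicase, and E2F1, a driver of S phase genes, fell by 1.89 and 1.36. Of the 15 tested genes listed as repressed by MYC, 10 rose and 4 fell (median 0.70), and 7 and 3 did so past 2-fold, where 12.1% and 11.4% of all tested genes did. CLU, a secreted chaperone, rose by 3.60 and GADD45A, a stress-induced growth arrest gene, by 3.00, whereas TGFBI, a matrix protein, fell by 6.16 and FTH1, the ferritin heavy chain, by 1.67 on the log2 scale. TGFBI had a mean of 115 CPM in P0 and 0.631 CPM in P15.

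Of the 5 tested targets of MLX and its Mondo partners, 4 rose and 1 fell from P0 to P15. PKLR, the liver pyruvate kinase, was at most at 0.102 CPM in any library and was not tested. TXNIP and ARRDC4, related arrestin-like genes that both respond to glucose through MLXIP, moved apart in P15. From P0 to P3 both had risen, by log2 differences of 1.39 (TXNIP) and 0.63 (ARRDC4). TXNIP had log2 levels of 4.12, 4.25, 4.07 and 3.89 in P0, 5.44 to 5.50 in P3 and 5.20 to 5.31 in P7, and was listed at 0 in all 4 libraries of P15. Set against 3 counts per library, it was at least 217-fold lower in P15 than in P0. It was among the 16 genes lost in P15. ARRDC4 rose by 2.49 from P0 to P15 (SE 0.07, adjusted p = 1.1e-20). PFKFB3, an activator of glycolysis, rose by 0.56 and the fatty acid synthesis enzymes FASN and ACACA by 0.49 and 0.83, after log2 differences of -0.85 and -0.52 from P0 to P3.

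**Figure D4:**
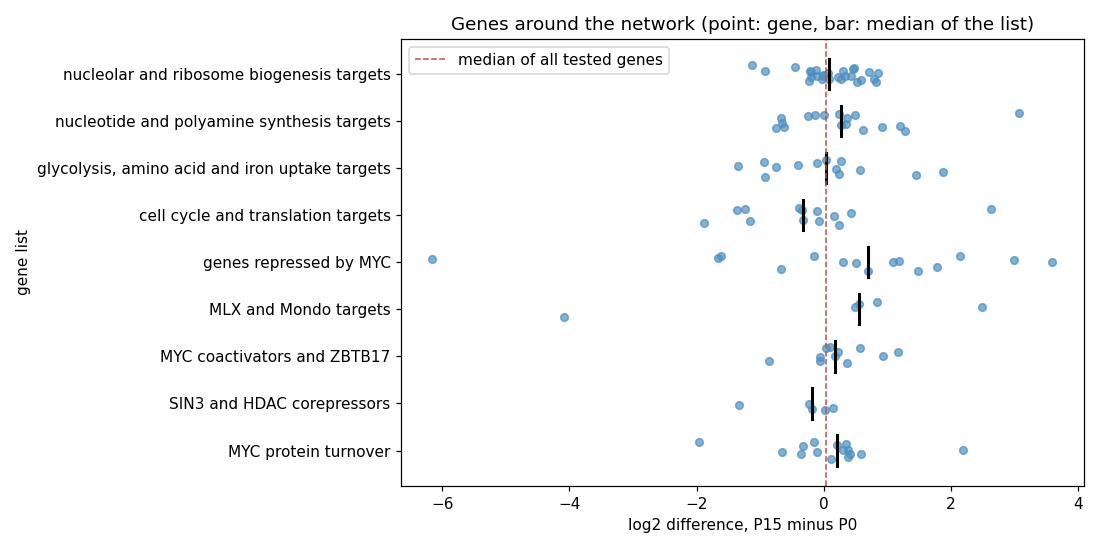
Log2 difference between P15 and P0 for the tested genes of each list (points), with the median of the list (bar) and of all tested genes (dashed line), and with TXNIP at its fitted value of -4.08. The nucleolar genes centre at 0.09 and the cell cycle genes at -0.33, and each target list has genes on both sides of 0.

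Around the MYC gene, 2 of the 3 tested neighbours within 2 Mb rose in P15, while in wider windows more genes fell than rose. PVT1, a long noncoding RNA gene that starts 0.0591 Mb from the start of MYC, had log2 levels of 3.18, 3.23, 3.56 and 3.22 in P0, 3.21 to 3.36 at P3 and 3.01 to 3.25 at P7, and 6.25, 6.25, 6.30 and 6.30 in P15. All P15 libraries lay above the others, which overlapped. The log2 difference to P0 was 2.98 (SE 0.07, adjusted p = 1.3e-21). LRATD2, listed as FAM84B and 1.18 Mb before MYC, had log2 levels of 3.83 to 4.03 in P0, 2.80 to 2.92 at P3, 3.39 to 3.50 at P7 and 5.93 to 6.08 in P15. It fell by 1.10 from P0 to P3 and was 2.05 higher in P15 than in P0 (adjusted p = 2.3e-20). CASC8, a noncoding gene between them, had a log2 difference of -0.02 (adjusted p = 0.86). Among the 8 tested genes of the list of MYC locus neighbours, 3 rose and 5 fell, with ASAP1 at -0.72 and WASHC5 at -0.66 the lowest. Windows around MYC were chosen after these values were seen. Beside 45.3% of all tested genes higher and 40.9% lower, 10 of 29 within 5 Mb were higher and 15 lower (median -0.12), and 14 of 47 within 10 Mb were higher and 28 lower (median -0.27), from TNFRSF11B at -4.86 to HAS2 at 4.13. The DNA copy number of the locus was not measured here.

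**Figure D5:**
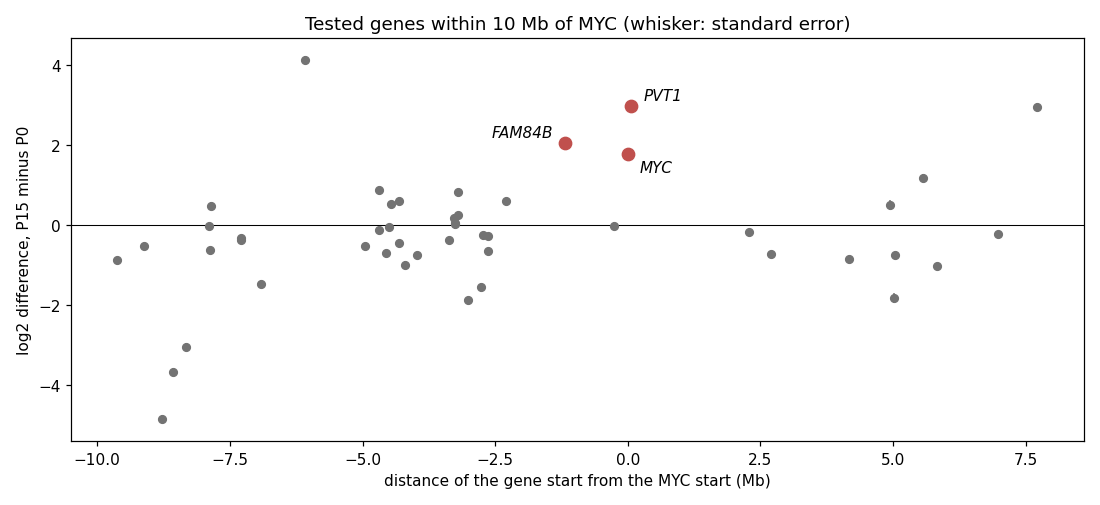
Log2 difference between P15 and P0 of the tested genes within 10 Mb of MYC against the distance from the start of MYC in Mb, with whiskers of 1 standard error mostly smaller than the points. PVT1 (2.98) and LRATD2, listed as FAM84B (2.05), lie near MYC (1.78), and the median of the 47 genes is -0.27.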

How the data were processed

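RNA-sequencing values of 16 libraries were used, 4 each of phases P0, P3, P7 and P15, grouped by the phase in the labels. Reads were aligned to GRCh38 with STAR 2.6.1a and assigned to genes with featureCounts by the authors, who deposited log2 of CPM with 1 added, given to 2 decimals. The methods also name quantile normalization and median centring, which these values do not carry. The annotation release, the strand setting and the treatment of multiply mapped reads are not given in the sources used here. Of the symbols in the table, 27 are dates and 2 occur more than once. The step between low values gave the worth of 1 count and so the depth, 33.7 to 50 M counts per library. Rounding hides whole counts at higher values, so no count test was run. Counts and floors cover counting error only.

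The deposited log2 values were fitted with limma 3.58.1 (R 4.3.3), with 1 coefficient per phase and a variance trend. Genes with a mean above 1 CPM (13249) entered the fit and its Benjamini-Hochberg adjustment. The procedure was tested on simulated data. Tables and figures used Python 3.11.15, numpy 2.4.6, pandas 2.3.3 and matplotlib 3.10.9. The members and lists were chosen with earlier results of these data known, and 3 genes of the lists are not reported here. All members are named, every gene of a list of 6 or fewer, and otherwise the 2 genes called with the largest rise and the 2 with the largest fall from P0 to P15. For likeness, 5 genes are named for MYC and 3 for each other member. CASC8, HAS2, TNFRSF11B, KRT7, KRT18, GATA3, PPARG, UPK1A, UPK2, KRT20 and the genes that share exon bases with a member were named after their values were seen. Coordinates and lengths are from GENCODE 44, and LRATD2 was matched through the RefSeq synonym FAM84B.

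The replicate number was read from the description, and for 14 of the 16 libraries the title carries another one. The alternatives were other filters and pseudocounts (0.1 and 5), quantile normalization, a shift to the same median, both numberings as a replicate block, no variance trend, 2 phases alone, limma's treat test at 1.2-fold and each library left out in turn. A fit of P0, P3 and P7 alone was added after seeing the data.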

Additional observations from a re-analysis of the deposited data

Results flagged for a closer look

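In groups of 4 libraries, a library was singled out where its gap to the nearest other library, divided by the range of the group, exceeded Dixon's 95% critical value for 4 samples. Of 212 groups of a gene and a phase, 14 exceeded it, while chance alone would give about 10.6, and 2 of the 40 groups of network genes did. MXD4 in replicate 2 of P0 stood at a log2 level of 5.85 above 5.65 to 5.68 in the others (ratio 0.85), and the log2 difference for P3 against P0 stayed between -1.60 and -1.51 when any 1 library was left out. MYCN in replicate 2 of P3 was the only library of that gene above 0 (ratio 1).

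Among the corepressors and coactivators, the ratio was 0.842 for SIN3A (P15 replicate 3, higher), 1 for SIN3B (P3 replicate 1, lower), 0.857 for NCOR1 (P15 replicate 3, higher) and 0.9 for KAT2A (P3 replicate 1, lower). Among the target genes it was 0.846 for RRS1 (P0 replicate 2, lower), 0.846 for UMPS (P0 replicate 2, lower), 1 for PKM (P15 replicate 3, higher), 0.913 for FTH1 (P3 replicate 4, lower), 0.944 for ACACA in P3 (replicate 2, lower) and 0.833 for ACACA in P15 (replicate 3, higher). Near MYC it was 0.868 for PVT1 (P0 replicate 3, higher) and 0.882 for WASHC5 (P15 replicate 3, higher). Replicate 3 of P15 appears 5 times, and its median log2 level over tested genes was 4.93, beside 4.88 to 4.89 in the other libraries of P15.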

How the results depend on the processing

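Over 28 alternatives, the 48 member differences gave 1292 values with the same direction and call, 13 that lost the call, 5 that gained it and 10 that changed sign. All 13 lost calls came from limma's treat test against a 1.2-fold difference, which left 3 members called for P3 against P0 and 2 for P7 against P3, and 5 each for P15 against P7 and P0. The sign changes were all in differences near 0 that were not called. MXD3 for P7 against P0 was 0.00086 with quantile normalization and 0.01 with the same median, and MXI1 for P3 against P0 was 0.027 and 0.01. With 1 library left out, MXI1 for P3 against P0 ranged from -0.0375 to 0.029, MAX for P7 against P0 from -0.0017 to 0.025, MXD3 for P7 against P0 from -0.04 to 0.017 and MNT for P7 against P0 from -0.0725 to 0.0042. The counts of members called ranged from 5 to 6 (P3 against P0), 6 to 6 (P7 against P3), 7 to 8 (P15 against P7) and 7 to 8 (P15 against P0). With the same median, MLX was called for P3 against P0 (0.10, adjusted p = 0.044), and without a filter MYCL was added to the genes called in P15.

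Libraries with the same replicate number had low correlations of their deviations from the phase mean. These were -0.147 to 0.218 with the number of the description and -0.117 to 0.218 with that of the title. Libraries with different numbers were not compared, so these values cannot show whether the numbers pair samples. With a replicate block, 5, 6, 7 and 7 members were called in the 4 comparisons under both numberings, and 0 of 96 member differences changed call or direction.

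Low counts limit MYCL and MYCN, and exons shared with other genes limit MXD3, MLX, MAX and MNT. Lengths of merged exons and of canonical transcripts gave different orders of the genes in all phases. In P15, MYC and MLX held ranks 1 and 2 by both lengths. Rank 3 went to MXI1 by merged exons and to MXD3 by canonical transcripts, and MAX had rank 6 and rank 4.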

Other observations

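Between members, the correlation of log2 levels over the 16 libraries is a description only, since the libraries share 4 phases. It was 0.97 for MYC and MNT, 0.83 for MYC and MXD1, 0.72 for MYC and MXI1, and -0.91 for MYC and MAX. MAX ran opposite to MXD1 (-0.96) and MNT (-0.94), and MXI1 opposite to MLX (-0.85). MXD3, highest in P3, and MXD4, lowest there, had a correlation of -0.74, and MYC and MXD3 one of -0.07.

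The E-box CACGTG was in the 250 bases before the start of 5 of 10 cell cycle and translation genes with a window, 5 of 13 genes of glycolysis and uptake, 4 of 15 of nucleotide and polyamine synthesis, 2 of 21 nucleolar genes, 1 of 9 genes repressed by MYC, 2 of 4 targets of MLX, 3 of 10 turnover genes, 2 of 7 coactivators, 0 of 5 corepressors and 0 of 2 other network factors, beside 11.2% of all tested genes with a window.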
